A study of Mus musculus with 5 samples.

Results

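The 10 genes described here encode the core of antigen presentation by the major histocompatibility complex (MHC), 5 on the class I side (B2m, H2-K1, H2-D1, Tap1, Psmb8) and 5 on the class II side (Cd74, H2-Aa, H2-Ab1, H2-Eb1, Ciita). They were chosen by name, and all 10 were found among the 55471 gene identifiers of the count table through the GRCm38 annotation. The identifiers are B2m ENSMUSG00000060802, H2-K1 ENSMUSG00000061232, H2-D1 ENSMUSG00000073411, Tap1 ENSMUSG00000037321, Psmb8 ENSMUSG00000024338, Cd74 ENSMUSG00000024610, H2-Aa ENSMUSG00000036594, H2-Ab1 ENSMUSG00000073421, H2-Eb1 ENSMUSG00000060586, Ciita ENSMUSG00000022504. The mRNA came from spinal cord tissue of male C57BL/6J mice aged 3 months, with 2 libraries of Lhx1os -/- (KO) mice and 3 of WT mice, all from resting animals. Lhx1os gives a long non-coding RNA, and its second exon was cut with Cas9 and a single guide to insert a synthetic poly(A) site followed by MAZ elements. No cell type was isolated, and the labels do not say whether the KO libraries came from separate founders or litters.

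Class I molecules stand on nearly all nucleated cells and show peptides cut in the cytosol to CD8+ T cells. Class II molecules stand mainly on specialised presenting cells and show peptides from endosomes to CD4+ T cells. In the healthy central nervous system, resting microglia are known to carry little class II, whereas part of the macrophages of the meninges and perivascular spaces carry it. Class II genes and part of the class I genes share a promoter module of X and Y boxes, bound by the RFX complex, CREB-like factors and NF-Y, through which CIITA acts on class II and NLRC5 on class I.

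Totals ran from 15973063 to 16384033 counts in the KO libraries and from 16086041 to 19437533 in the WT libraries. Lhx1os itself had 13 and 11 counts in KO, against 56, 66 and 51 in WT. All 9 markers of spinal cord tissue that were examined, among them Snap25, Mbp, Chat and Hoxc8, were detected in every library. WT replicate 1 stood apart from the other WT libraries in the class II genes. It also did so in the summed meningeal fibroblast, border macrophage and endothelial markers. The class II fold changes and the class II share are given with and without it.

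The promoters are shown because they carry the element that both classes share, so that the values of both classes can be read beside a common feature. RefSeq's GRCm38.p6 table held 7 of the 10 members. The stretches below are the 160 bases before the annotated start, 5′ to 3′ on the gene's strand, with TGACG (the core of the X2 box, TGATG in H2-Eb1) and ATTGG (the core of the Y box) in capitals.
H2-Aa: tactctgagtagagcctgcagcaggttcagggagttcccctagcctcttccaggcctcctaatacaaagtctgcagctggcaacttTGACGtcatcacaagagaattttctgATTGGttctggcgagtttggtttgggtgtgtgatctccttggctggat
H2-Eb1: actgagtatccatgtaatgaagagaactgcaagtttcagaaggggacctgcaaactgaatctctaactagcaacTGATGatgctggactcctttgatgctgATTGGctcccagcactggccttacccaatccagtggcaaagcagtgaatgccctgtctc
B2m: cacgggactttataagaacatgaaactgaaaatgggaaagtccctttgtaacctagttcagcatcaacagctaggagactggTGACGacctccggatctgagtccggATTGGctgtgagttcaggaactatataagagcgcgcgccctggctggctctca
H2-K1: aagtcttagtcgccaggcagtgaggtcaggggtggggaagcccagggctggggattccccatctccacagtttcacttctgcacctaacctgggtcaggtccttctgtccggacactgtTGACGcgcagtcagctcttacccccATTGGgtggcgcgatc
They lie at chr17:34287824-34287983 on the minus strand (H2-Aa), chr17:34305707-34305866 on the plus strand (H2-Eb1), chr2:122147527-122147686 on the plus strand (B2m) and chr17:34000348-34000507 on the minus strand (H2-K1).

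The gap between the 2 cores was 21 bases in H2-Aa, 22 in H2-Eb1, and 20 in both B2m and H2-K1. TGACG followed after 18 to 22 bases by ATTGG, on either strand of the 250 bases before the start, was present in 4 of the 7 members (B2m, H2-K1, H2-D1, H2-Aa) and in 71 of 27025 promoters (0.263%). With any base at the fourth position (TGANG, a search that contains the former), H2-Eb1 was added, and 343 promoters (1.27%) held the pattern. Tap1 and Psmb8 held neither pattern. The looser form takes in the TGATG of H2-Eb1, and the gap limits take in all gaps printed above. The matches in those members are therefore no separate support. One string of the interferon-response element (GAA, any 2 bases, then GAAAC) was found in H2-K1 and H2-D1, and in 1.47% of all promoters. Other forms of that element were not searched for, and the B2m stretch above holds gaaactgaaa, which this string does not match. The NF-kB palindrome (GGGGATT followed directly by CCCC) was found in H2-K1 and H2-D1 as well, and in 6 promoters in all (0.0222%). Neither of these 2 strings was found in the 250 bases of the class I members B2m, Tap1 and Psmb8, or of H2-Aa and H2-Eb1. These are matches of letters and say nothing of binding.

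Per length of exon, the class I genes B2m, H2-D1 and H2-K1 led the order of levels. The class I genes Psmb8 and Tap1 averaged below Cd74, H2-Eb1, H2-Aa and H2-Ab1. B2m, the light chain of every class I molecule, averaged 117 ± 13.7 RPKM in KO (RPKM, the TMM-scaled CPM divided by exon length in kilobases; SD, n = 2) and 122 ± 10.3 in WT (SD, n = 3). The heavy chain genes H2-D1 and H2-K1 followed, at 34.4 ± 4.95 and 14.1 ± 3.45 in KO, and at 32.8 ± 1.47 and 13.9 ± 0.779 in WT. Cd74, the invariant chain that guards the class II groove, came next at 6.57 ± 1.19 in KO and 7.64 ± 3.19 in WT. The ranges over the 5 libraries of these 4 genes did not overlap one another. In bulk tissue such levels cannot tell fewer cells of a type from less RNA per cell.

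H2-Eb1, H2-Aa and H2-Ab1, which encode class II chains, averaged 2.70, 1.96 and 1.55 RPKM over all libraries. Psmb8, a catalytic subunit of the immunoproteasome, averaged 1.198 and Tap1, a subunit of the peptide transporter into the endoplasmic reticulum, 0.950. From Cd74 down to Tap1, each gene's range over libraries overlapped that of its neighbour. With the longest transcript as the length, H2-Ab1 moved to the fifth place of the order, ahead of H2-Eb1 and H2-Aa. Ciita was the lowest, at 0.0289 ± 0.0409 in KO and 0.0256 ± 0.00672 in WT.

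**Figure D1:**
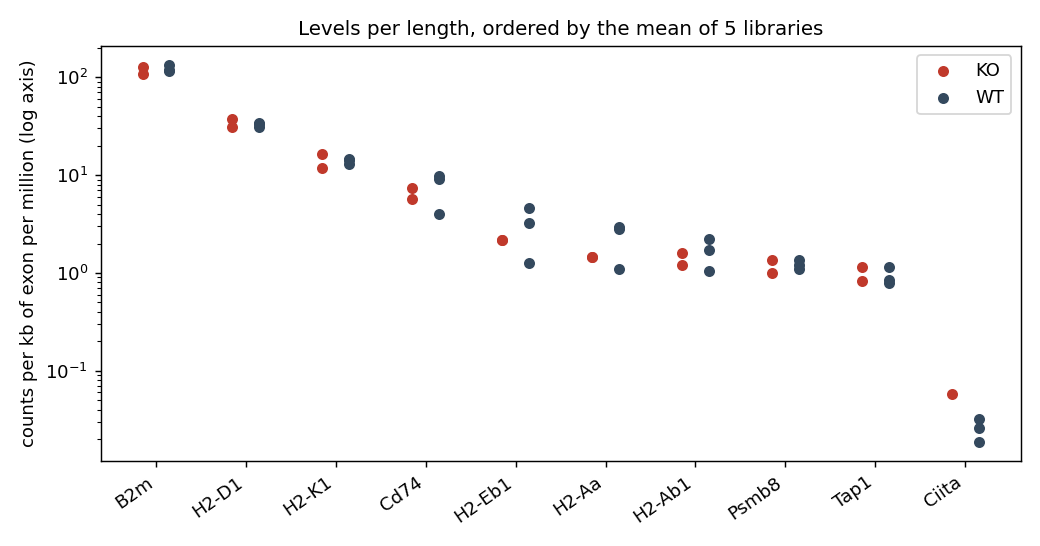
Level of each presentation gene in RPKM (log axis), ordered by the mean of the 5 libraries, with 1 point per library, KO left of WT. B2m, H2-D1 and H2-K1 lie above the other genes, and the WT points of the class II genes are spread widely; the KO library in which Ciita had 0 counts has no point.

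No class I gene passed the test between KO and WT, and in each the groups overlapped. Levels are in CPM, the counts scaled to a common library size with TMM factors. B2m (chromosome 2, 122147686 to 122153083, plus strand) had 109 and 92.6 CPM in the KO libraries, against 101, 99.2 and 115 CPM in the WT libraries. KO replicate 1 lay inside the WT range and KO replicate 2 below it. Its log2 fold change, KO over WT, was −0.06 (SE 0.09; 95% interval −0.26 to 0.14; adjusted p = 0.895 in edgeR's quasi-likelihood test over 16052 genes).

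H2-D1 (chromosome 17, 35262730 to 35267499, plus strand) had 97.8 and 79.7 CPM in KO, against 80.3, 87.1 and 86.4 CPM in WT. H2-K1 (chromosome 17, 33996017 to 34000347, minus strand) had 48.7 and 34.4 CPM in KO, against 38.4, 41.5 and 42.9 CPM in WT. For both heavy chains, KO replicate 1 was the highest library and KO replicate 2 the lowest, so that the WT values lay between them. The log2 fold changes were 0.07 for H2-D1 (SE 0.09; 95% interval −0.13 to 0.26; adjusted p = 0.871, edgeR) and 0.02 for H2-K1 (SE 0.13; −0.26 to 0.30; adjusted p = 0.981). Of the 50-base windows of their longest transcripts, 14.3% for H2-D1 and 8.11% for H2-K1 also occur in other genes, chiefly other heavy chains, so the counting could have divided or dropped such reads.

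Tap1 (chromosome 17, 34187553 to 34197225, plus strand) had 6.26 and 4.56 CPM in KO, against 4.28, 6.23 and 4.68 CPM in WT, with a fitted log2 difference of 0.09 (SE 0.22; adjusted p = 0.943, edgeR). Psmb8 (chromosome 17, 34197721 to 34201454, plus strand) had 4.60 and 3.38 CPM in KO, against 4.05, 3.68 and 4.56 CPM in WT, with a fitted log2 difference of −0.03 (SE 0.22; adjusted p = 0.982, edgeR). The groups overlapped for both genes. Psmb5, the constitutive counterpart that Psmb8 replaces in the immunoproteasome, was far more abundant: per exon length, Psmb8 made up 1.89% and 1.44% of the sum of Psmb8 and Psmb5 in KO, and 1.62%, 1.53% and 1.99% in WT. These shares use all exon bases of Psmb8 (3381), and its longest transcript has 1907. Psmb5 has 899 by both measures, so the shares would be higher with the longest transcript. Tap1 shares 212 bases of exon with Psmb9 on the opposite strand, and the strand setting of the counting is not given in the sources used here.

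Cd74, H2-Aa, H2-Ab1 and H2-Eb1 had lower means in KO, but their WT libraries spanned the KO values. Cd74 (chromosome 18, 60803848 to 60812652, plus strand) had 12.5 and 9.63 CPM in the KO libraries, against 6.66, 16.3 and 15.5 CPM in the WT libraries. Its log2 fold change was −0.22 (SE 0.31; 95% interval −0.90 to 0.46; adjusted p = 0.888, edgeR). WT replicate 1 was the lowest of the 5 libraries, and WT replicates 2 and 3 lay above both KO libraries.

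H2-Aa (chromosome 17, 34282744 to 34287823, minus strand), the alpha chain of I-A, had 5.58 and 5.56 CPM in KO, against 4.17, 11.1 and 10.7 CPM in WT. H2-Ab1 (chromosome 17, 34257689 to 34269419, plus strand), its beta chain partner, had 4.11 and 3.13 CPM in KO, against 2.68, 5.67 and 4.37 CPM in WT. H2-Eb1 (chromosome 17, 34305867 to 34316674, plus strand), the beta chain of I-E, had 4.23 and 4.19 CPM in KO, against 2.44, 9.04 and 6.34 CPM in WT. All 3 repeated the order of Cd74, with WT replicate 1 lowest and WT replicate 2 highest.

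The log2 fold changes were −0.64 for H2-Aa (SE 0.34; 95% interval −1.41 to 0.12), −0.24 for H2-Ab1 (SE 0.30; −0.91 to 0.43) and −0.51 for H2-Eb1 (SE 0.41; −1.43 to 0.41). None passed (adjusted p of 0.714, 0.871 and 0.791 in edgeR). These intervals reach changes of more than 1 log2 unit for H2-Aa and H2-Eb1, while the farthest bound was 0.30 among B2m, H2-D1 and H2-K1, −0.51 for Psmb8 (upper bound 0.45) and 0.58 for Tap1 (lower bound −0.41). The alpha chain partner of H2-Eb1, H2-Ea-ps, is annotated as a polymorphic pseudogene and had 0 counts in all 5 libraries; the b haplotype of C57BL/6 mice is known to lack I-E for want of this chain.

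Ciita (chromosome 16, 10480059 to 10528418, plus strand), the co-activator on which class II transcription depends, had 9 and 0 counts in KO, against 3, 6 and 4 counts in WT. It did not pass the filter on low counts and was not tested. The ratio of its summed rate in KO over WT was 1.13, with an exact Poisson 95% interval of 0.426 to 2.85 that covers counting error only. A count of 0 in KO replicate 2 allows up to 0.188 CPM (3 counts, close to the one-sided 95% Poisson limit), and the other libraries ran from 0.179 to 0.552 CPM. A further limit is that 329 bases of its exons overlap Dexi on the opposite strand, a gene with 4301 counts in all.

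**Figure D2:**
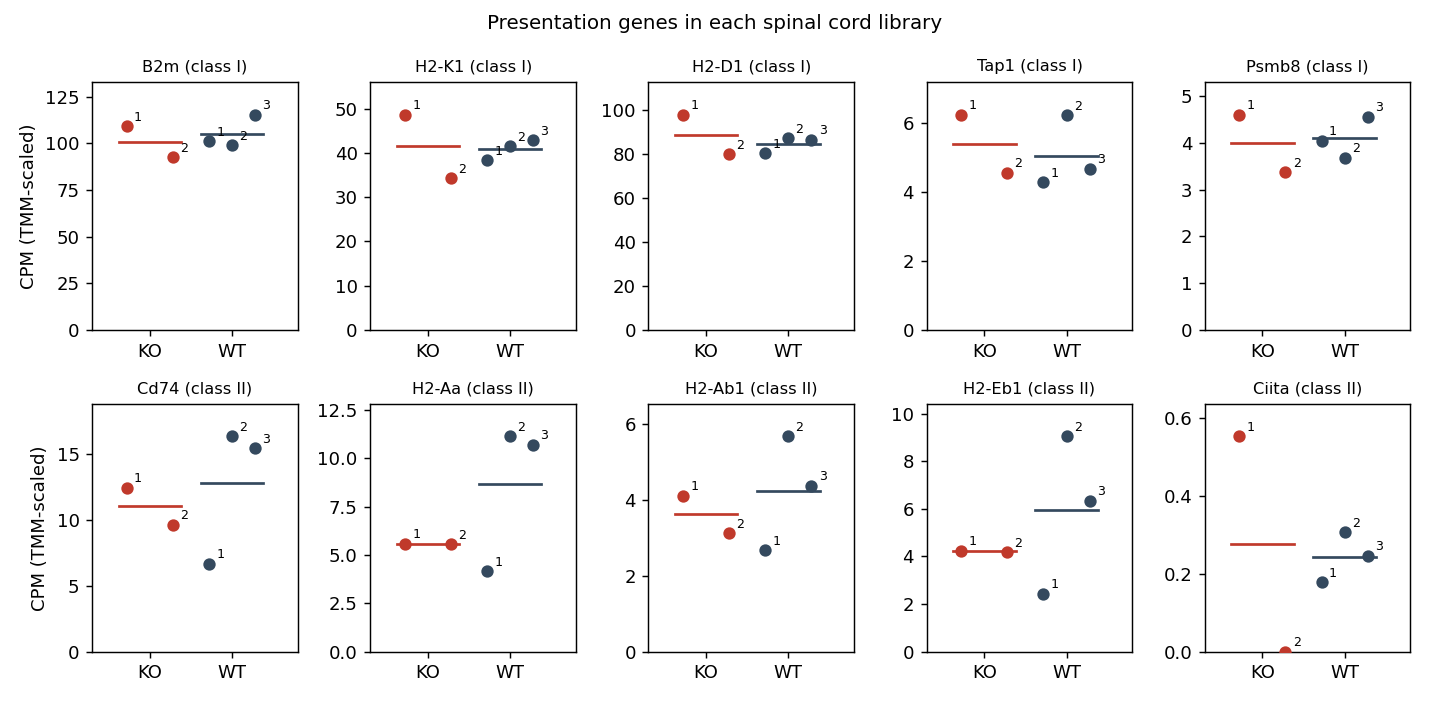
CPM (TMM-scaled, axes from 0) of the 10 presentation genes, 1 point per library with its replicate number, KO left of WT, and a line at each group's mean. In Cd74, H2-Aa, H2-Ab1 and H2-Eb1 the WT points spread from below to above the KO points; in B2m, H2-K1 and H2-D1 all points lie close together.

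Of the 9 members tested, 0 passed in edgeR, where 3 of 16052 genes (0.0187%) passed, and 0 had an unadjusted p under 0.05, against 7.57% of all genes. DESeq2 and limma-voom passed 0 members as well, where they passed 40 genes (0.249%) and 1 gene (0.00623%). For 0 of the 9 the groups did not overlap, against 24.9% of all tested genes. The median log2 fold change was 0.02 over the 5 class I genes and −0.37 over the 4 class II genes tested, beside 0.0044 over all genes. The class II median was −0.70 without WT replicate 1 and −0.028 without WT replicate 2. A test of the difference between the classes was not run.

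**Figure D3:**
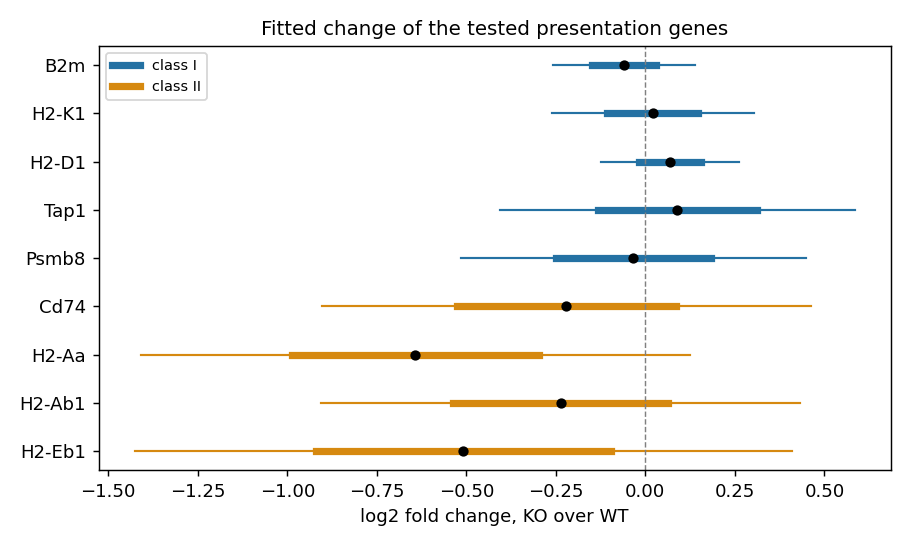
Fitted log2 fold change, KO over WT, of the 9 tested presentation genes (points), with thick bars for 1 standard error and thin bars for the 95% interval. Every interval includes 0, and those of the class II genes are wider and centred below it.

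The class II members tested spanned a wider range over the libraries than the class I members. From the lowest to the highest library, log2 CPM spanned 0.29 (H2-D1) to 0.53 (Tap1) in class I and 1.05 (H2-Ab1) to 1.84 (H2-Eb1) in class II, beside a median of 0.31 over all tested genes. Among WT libraries alone, H2-Eb1 differed 3.71-fold, H2-Aa 2.67-fold, Cd74 2.45-fold and H2-Ab1 2.12-fold, while H2-D1 differed 1.09-fold, H2-K1 1.12-fold and B2m 1.16-fold. Between the KO libraries, H2-Aa and H2-Eb1 were nearly equal, and the other 7 tested members were all higher in KO replicate 1. Tap1, at 72 to 122 counts per library, and H2-Ab1, at 45 to 111, had similar counts and spanned 0.53 and 1.05. H2-Q4, a class I heavy chain gene outside the members, had 64 to 162 counts and spanned 1.03. A wide span was not particular to class II genes. The median span was 0.69 over the other class I and class I-like heavy chains and 0.24 over the other class II pathway genes. It was 1.10 over interferon-stimulated genes and 1.38 over border macrophage markers. The part of low counts in these spans was not tested. The biological coefficient of variation fitted by edgeR was 6.93% to 15.2% for the class I genes and 20.8% to 29.8% for the class II genes, with a median of 7.87% over all genes.

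As a share of the length-scaled counts of Cd74, H2-Aa, H2-Ab1, H2-Eb1, B2m, H2-K1 and H2-D1, class II made up 6.52% and 6.57% in KO, against 4.35%, 10.7% and 8.52% in WT. The WT libraries lay on both sides of the KO libraries, which were nearly alike. The difference of the mean shares, KO minus WT, was −1.31 percentage points. It was −3.06 without WT replicate 1 and 0.11 without WT replicate 2. The class I sums of these length-scaled counts exceeded the class II sums 14.3-fold and 14.2-fold in KO, and 21.99-fold, 8.36-fold and 10.7-fold in WT. The size of the excess depends on the length scaling. In counts without it, the class II share was 9.35% and 9.82% in KO, against 6.76%, 15.6% and 13.1% in WT.

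The class II comparison depended on which WT libraries entered it. Without WT replicate 1, H2-Aa passed as lower in KO, at −0.97 log2 units (SE 0.16; adjusted p = 0.0330 in edgeR). It was 1 of 9 members in a fit in which 58 genes (0.363%) passed, 0.332% of all genes as lower. The other class II genes did not pass there, at −0.88 for H2-Eb1 (adjusted p = 0.191), −0.53 for Cd74 (adjusted p = 0.271) and −0.48 for H2-Ab1 (adjusted p = 0.580). In the same fit, the border macrophage markers F13a1 (−1.26) and Cd163 (−1.49) and the fibroblast genes Col1a1 (−0.67), Col1a2 (−0.60), Dcn (−0.75) and Lum (−0.89) passed as lower. WT replicate 1 was the lowest WT library for all of these genes. Leaving it out therefore raised the WT mean and narrowed the WT spread by itself. A pass in that fit, with 2 libraries in each group, is thus no separate evidence of a change. Without WT replicate 2, none of the 4 class II genes passed: H2-Aa stood at −0.41 (adjusted p = 0.756), Cd74 at 0.00092, H2-Ab1 at 0.040 and H2-Eb1 at −0.06.

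Summed markers of the tissue borders were high in the same WT libraries as the class II genes, but did not share their full order. The summed level of 8 border macrophage markers was 21.04 and 18.003 CPM in KO, against 18.5, 40.0 and 38.4 CPM in WT. The summed level of 8 meningeal fibroblast markers was 215 and 227 CPM in KO, against 181, 318 and 377 CPM in WT. In both sums, WT replicates 2 and 3 were the high libraries, as they were for Cd74, H2-Aa, H2-Ab1 and H2-Eb1. WT replicate 1, lowest for these genes, was lowest for the fibroblast sum, while KO replicate 2 was lowest for the border macrophage sum. Some single markers differed. Ms4a7 was highest in WT replicate 1 (1.19 CPM, against 0.715 and 0.616 CPM in WT replicates 2 and 3). Mgp was higher in WT replicate 1 (36.2 CPM) than in WT replicate 2 (31.2 CPM). Clec12a was higher in KO replicate 1 (0.613 CPM) than in WT replicate 2 (0.460 CPM). The part of border cells in the class II levels was not tested.

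**Figure D4:**
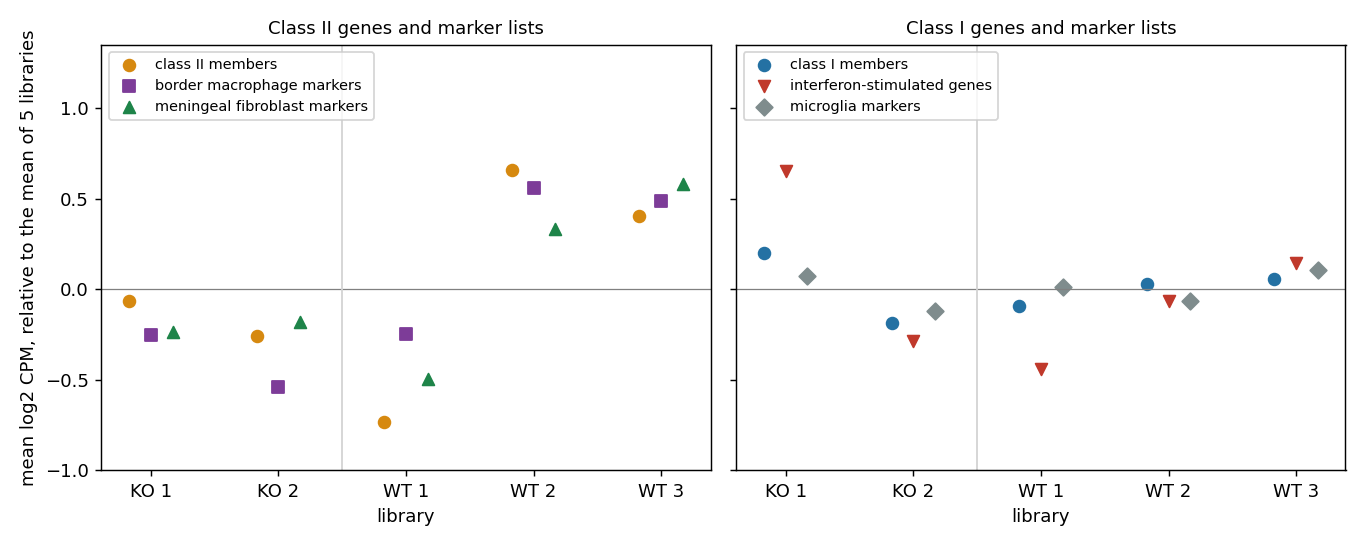
Mean log2 CPM of gene lists in each library, relative to the mean of the 5 libraries, with the class II genes, border macrophage and meningeal fibroblast markers on the left and the class I genes, interferon-stimulated genes and microglia markers on the right; the vertical line parts KO from WT. The class II genes and both border lists are high in WT replicates 2 and 3, and the class I genes stay within 0.20 of their mean.

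Of the border macrophage markers, 7 of 8 were tested, 0 passed, and all 7 log2 fold changes were negative (median −0.83). F13a1, a transglutaminase subunit gene, stood at −0.99 (SE 0.30; adjusted p = 0.508, edgeR), Cd163, a haemoglobin scavenger receptor, at −1.12 (SE 0.44; adjusted p = 0.639), and Mrc1, the mannose receptor CD206, at −0.41 (SE 0.33; adjusted p = 0.783). All 8 fibroblast markers also had negative values (median −0.44) and 0 passed. Mgp, a matrix protein, stood at −0.45 (SE 0.13; adjusted p = 0.487) and the small proteoglycan gene Dcn at −0.44 (SE 0.30; adjusted p = 0.761).

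Microglia markers did not follow the class II genes. Their summed level was 590.0 and 514 CPM in KO, against 567, 533 and 592 CPM in WT, with no high value in WT replicate 2. Tmem119, a microglial membrane protein, had the smallest p of the list, at −0.32 (SE 0.10; adjusted p = 0.512), and Csf1r, the receptor that microglia need to survive, stood at −0.07 (SE 0.08).

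The lymphocyte and dendritic cell lists held genes at or near 0 beside genes that were well detected. Cd79a, a subunit of the B cell receptor, had 1 and 7 counts in KO, against 7, 5 and 4 in WT, and Cd3e, a subunit of the T cell receptor complex, had 0 and 0 counts in KO, against 4, 0 and 0 in WT. Trac, the constant region of the T cell receptor alpha chain, had 24 and 30 counts in KO, against 25, 31 and 30 in WT. Ighm alone of the B cell list was abundant, at 59.5 ± 7.52 CPM in KO and 49.9 ± 3.25 CPM in WT. Of the dendritic cell list, Xcr1 had 0 counts throughout and Clec9a 1 count in all, while Flt3 (30.5 ± 2.34 CPM in KO and 30.8 ± 3.27 CPM in WT) made up most of the sum and Zbtb46 followed, at 8.53 and 8.001 CPM in KO, against 6.66, 8.58 and 6.83 CPM in WT. The summed monocyte and neutrophil markers reached 1.750 to 2.58 CPM in KO and 1.91 to 3.01 CPM in WT. Within that list Ccr2, a chemokine receptor of monocytes, had 9 and 7 counts in KO, against 7, 26 and 22 in WT (log2 fold change −1.06, SE 0.55; adjusted p = 0.707, edgeR). Ccr2 was thus high in WT replicates 2 and 3, as the class II genes were, and its part in their levels was not tested. S100a9 and S100a8 of the same list were lowest in WT replicate 3. S100a9 had 20 and 17 counts in KO, against 23, 20 and 6 in WT (log2 fold change 0.30, SE 0.47). S100a8 had 9 and 4 counts in KO, against 9, 10 and 2 in WT.

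**Figure D5:**
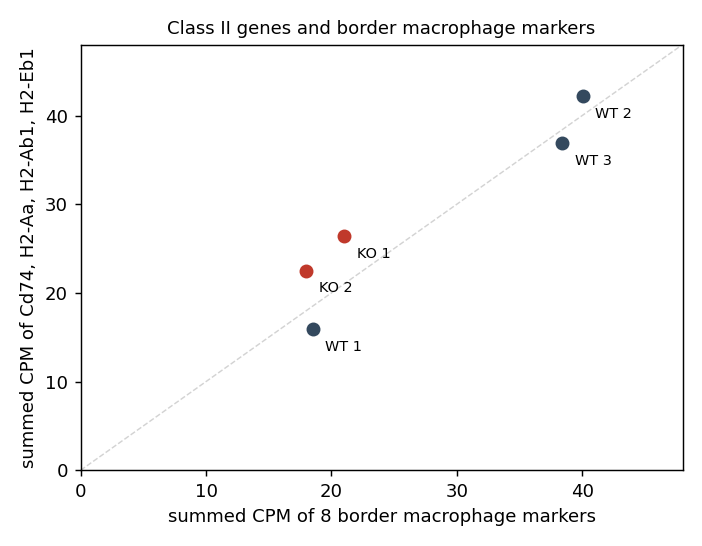
Summed CPM of Cd74, H2-Aa, H2-Ab1 and H2-Eb1 against the summed CPM of 8 border macrophage markers, 1 point per library (KO red, WT dark), with a dashed line where both are equal. WT replicates 2 and 3 are high on both axes, and WT replicate 1 and both KO libraries are low on both.

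Among tested genes outside the members with a mean of at least 1 CPM, the one whose pattern over the 5 libraries was closest to the class II profile was Mrc1. The root mean square difference between its centred log2 CPM and the mean of Cd74, H2-Aa, H2-Ab1 and H2-Eb1 was 0.0252, with 7.11 and 6.00 CPM in KO, against 4.40, 11.6 and 10.1 CPM in WT. Lamc3 (0.0781), Pla1a (0.0796), Hspg2 (0.123) and Folr2 (0.124) followed. Nearest to the class I profile were Zfp26 (0.0204), Ccdc9b (0.0226), Ikzf4 (0.0258), Arhgap24 (0.0275) and Hint2 (0.0289), whose levels, like those of H2-K1 and H2-D1, were highest in KO replicate 1. With 5 libraries and so many genes, such likeness is a description.

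Of 12 further genes of the class I pathway, all were tested and 0 passed, with 4 positive and 8 negative log2 fold changes and a median of −0.02. The ER lectins and the isomerase that fold the heavy chain had the smallest p of the list: Pdia3 stood at −0.24 (SE 0.07; adjusted p = 0.508, edgeR), Calr at −0.22 (SE 0.07; adjusted p = 0.525) and Canx at −0.16 (SE 0.06; adjusted p = 0.620). In these 3 genes both KO values were under all 3 WT values, which held for 12% of all tested genes in that direction. They serve glycoprotein folding at large and not class I alone.

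Of the other class I and class I-like heavy chain genes, 14 of 17 were tested and 0 passed (median log2 fold change 0.03). H2-T22 was the most abundant by CPM, at 32.2 ± 1.10 in KO and 30.4 ± 1.16 in WT. Cd1d1, which presents lipids, had the smallest p, at 0.35 (SE 0.19; adjusted p = 0.714), with 5.41 ± 1.02 CPM in KO and 4.24 ± 0.141 CPM in WT. Fcgrt, the neonatal Fc receptor, stood at −0.27 (SE 0.18). Of the constitutive proteasome subunits, Psmb7 stood at 0.04 (SE 0.06) and Psmb6 at 0.07 (SE 0.06).

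Among the further class II pathway genes, 8 of 12 were tested and 0 passed, 2 with positive and 6 with negative log2 fold changes (median −0.12). The abundant proteases of this list are also made by microglia and other cells, and they were even across libraries: Lgmn stood at 226 ± 19.9 CPM in KO and 220.0 ± 6.04 CPM in WT, and Ctss at 96.1 ± 8.82 CPM in KO and 103 ± 6.41 CPM in WT. Ctsl stood at −0.13 (SE 0.06; adjusted p = 0.682). H2-DMb1, a subunit of the peptide exchanger of class II, singled out after its values were seen, had 3.13 and 2.75 CPM in KO, against 2.02, 4.19 and 3.51 CPM in WT, which is the library order of the class II members. Its partner H2-DMa did not show that order, at 8.46 and 8.13 CPM in KO, against 7.68, 8.48 and 7.63 CPM in WT.

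Of the 10 genes of a list that holds the factors binding the shared promoter module and the costimulatory genes Cd80, Cd86 and Cd40, 0 passed (median −0.03). Rfx5, a subunit of the X box complex, had 34.6 ± 1.68 CPM in KO and 34.9 ± 1.69 CPM in WT. Creb1, of the CREB family that binds the X2 box, stood at −0.29 (SE 0.10; adjusted p = 0.560), and Nfya, of the Y box factor, at −0.17 (SE 0.10; adjusted p = 0.732).

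Interferons are known inducers of both classes. Of 18 interferon-stimulated genes tested, 0 passed, with 16 positive log2 fold changes and a median of 0.39. Their summed level was 143 and 86.1 CPM in KO, against 74.1, 90.1 and 106 CPM in WT, so that KO replicate 1 was high and KO replicate 2 lay within the WT range. KO replicate 1 was also the highest library for H2-D1 and H2-K1, while it was below WT replicates 2 and 3 for Cd74, H2-Aa, H2-Ab1 and H2-Eb1. The antiviral genes Rsad2 (1.21, SE 0.42; adjusted p = 0.586) and Ifit3 (0.67, SE 0.25; adjusted p = 0.621) did not pass.

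In the interferon signalling list, 0 of 14 tested genes passed (median 0.02). Stat2 had the smallest p, at 0.34 (SE 0.10; adjusted p = 0.476), with 34.9 ± 5.003 CPM in KO and 27.5 ± 0.634 CPM in WT. Irf2 stood at −0.27 (SE 0.10; adjusted p = 0.626) and Jak1 at 0.03 (SE 0.06). Endothelial markers, whose cells carry class I, summed to 248 and 149.9 CPM in KO, against 165, 223 and 219 CPM in WT, with KO replicate 1 high and KO replicate 2 low, as for the class I heavy chains. The part of interferon or of endothelial content in the class I levels was not tested. Skeletal muscle markers were high in KO replicate 1 as well, at 14.7 CPM against 4.50 CPM in KO replicate 2 and 2.28 to 5.24 CPM in WT, and erythroid markers summed to 238 to 336 CPM in KO and 231 to 347 CPM in WT.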

How the data were processed

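The table deposited by the authors holds raw counts, 1 row per gene and 1 column per library. The submitters' processing notes name GRCm38, HTSeq, STAR 2.5.2b, Trimmomatic and cutadapt, in no stated order; per the labels' protocols, libraries were made with a stranded mRNA kit. Which annotation release and strand setting were used is not given in the sources used here. Groups came from sample titles, and columns were matched by the library descriptions. Each library name carries its own number, which the labels do not explain; no label says whether the libraries are separate animals, and if they are not, p-values measure only the spread between these libraries, which may be technical; libraries of a group differed beyond sampling noise (chi-square per degree of freedom 4.01 to 7.47).

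Symbols, exon lengths and coordinates came from GENCODE M21 (GRCm38), promoters from RefSeq. Genes passing filterByExpr (minimum count 10, total 15) were tested with edgeR 4.0.16 (quasi-likelihood test, R 4.3.3) with TMM factors and no covariate, adjusted by Benjamini-Hochberg over 16052 genes at 0.05, a procedure tested on simulated data. Intervals of 95% use the standard error and the moderated degrees of freedom. Log2 CPM used a prior count of 2, and library levels were divided by union exon length. Alternatives were other size factors, filters and dispersion, DESeq2 1.42.0, limma-voom 3.58.1, a replicate block and each library left out. The members and the 20 gene lists were chosen with earlier results of these data known. All members are named; from other lists, passing genes, or else the 2 most abundant and the 2 of smallest p, in part only. Cell markers too low to test, Ms4a7, Pecam1, Cdh5, Esam, H2-Q4, Psmb5, Snap25, Chat, H2-DMa and H2-DMb1 lie outside that rule.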

Additional observations from a re-analysis of the deposited data

How the results depend on the processing

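Of 117 alternative values of single members, 102 kept the direction and the side of the threshold, 14 changed sign and 1 newly passed (H2-Aa without WT replicate 1, −0.97, adjusted p = 0.0330). Leaving out 1 library at a time, the log2 fold changes ran from −0.19 to 0.053 for B2m, −0.25 to 0.25 for H2-K1, −0.089 to 0.21 for H2-D1, −0.16 to 0.30 for Tap1, −0.28 to 0.17 for Psmb8, −0.53 to 0.00092 for Cd74 and −0.48 to 0.040 for H2-Ab1, all changing sign, and from −0.97 to −0.41 for H2-Aa and −0.88 to −0.06 for H2-Eb1. The class I median ran from −0.19 without KO replicate 1 to 0.21 without KO replicate 2, and the class II median from −0.70 without WT replicate 1 to −0.028 without WT replicate 2. With 1 library left out, members called ran from 0 to 1 and other list genes called from 0 to 6. Genes called over the transcriptome then ran from 0 (without KO replicate 1) to 58 (0.363%, without WT replicate 1), against 3 (0.0187%) with all libraries. That count was 6 (0.0374%) with DESeq2 size factors, 12 (0.0748%) with robust dispersion, 40 (0.249%) with DESeq2 and 1 (0.00623%) with limma-voom. It was 25 (0.156%) with the replicate block, and 96 of 25742 genes tested (0.373%) without a filter. The cause was not tested. List genes called were 3 without a filter (F13a1, Mgp, Myh4) and 1 with the block (Hoxc8). The replicate numbers pair nothing in the labels, and deviations of same-numbered libraries correlated at 0.058 and 0.0020 over genes; with the replicate block B2m stood at 0.0062, Psmb8 at 0.035 and Cd74 at 0.015. Depth limits Ciita, which was tested only without a filter (0.16, adjusted p = 0.973).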

Other observations

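Set against the border macrophage markers of the same library, the summed CPM of Cd74, H2-Aa, H2-Ab1 and H2-Eb1 was 1.25 times the marker sum in both KO libraries, and 0.862, 1.05 and 0.960 times in the WT libraries. The KO ratios thus lay above the WT ratios, whereas the class II sum itself overlapped between the groups. This ratio was formed after the values were seen and was not tested. Against the fibroblast markers the ratio was 0.123 and 0.0990 in KO, and 0.0881, 0.133 and 0.0979 in WT, where the groups overlapped.

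Over the 5 libraries, the class II profile lay 0.449 log2 units (root mean square) from the class I profile, 0.215 from the fibroblast list, 0.270 from the border macrophage list, 0.359 from the endothelial list, 0.429 from the other class II pathway genes and 0.493 from the microglia list. The class I profile lay 0.0636 from the other class I heavy chains, 0.0731 from the interferon signalling list, 0.0925 from the microglia list, 0.156 from the endothelial list and 0.267 from the interferon-stimulated genes. It lay 0.101 from the other class II pathway genes, 0.131 from the spinal cord markers and 0.145 from the constitutive proteasome subunits. Nearness to this even profile was thus not particular to class I genes.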
